A study of Homo sapiens with 5 samples.

Results

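The genomic positions found with an antibody to NRF2 were compared gene by gene with those found with an antibody to ACTL6A in SNU638, an established human gastric cancer cell line. The assay was CUT&Tag, in which an antibody guides a transposase to the chromatin that holds its target and the released fragments are sequenced. The cells carried no label of a treatment or of an added gene, about 100000 cells entered each assay, and each antibody gave 1 library, so every value below lacks a replicate and no test between the antibodies was possible. The series also held 1 library with an antibody to BRG1 and 2 libraries with IgG, a control antibody with no chromatin target. The peaks of the first IgG library carry the name given to the BRG1 series, and only the second IgG library, called IgG 2 here, was set against the NRF2 and ACTL6A lists.

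For each of 19689 protein-coding genes of GENCODE release 44, the lists were searched for a peak with at least 1 base within 1 kb of any annotated transcription start site (TSS), after peaks that overlapped an IgG 2 peak were left out. An NRF2 or an ACTL6A peak was called at 8738 genes (44.4%). Of all genes, 4359 (22.1%) had both, 1170 (5.94%) had an NRF2 peak only, 3209 (16.3%) had an ACTL6A peak only and 10951 (55.6%) had neither. These shares over all genes are the background for every gene group below. A gene without a peak is one at which none was called, which does not show that the protein was absent.

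NRF2, encoded by NFE2L2, is a transcription factor that pairs with small MAF proteins and binds the antioxidant response element (ARE). KEAP1 holds it in the cytoplasm and delivers it to the CUL3-RBX1 ubiquitin ligase until oxidants or electrophiles modify KEAP1. Its known targets make glutathione, recycle thioredoxin, supply NADPH and detoxify quinones. ACTL6A (BAF53a) is an actin-related protein that does not read DNA letters itself and is a shared subunit of the SWI/SNF (BAF), INO80 and TIP60 chromatin complexes. BRG1, encoded by SMARCA4, is an ATPase of SWI/SNF.

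The ARE cores in the NRF2 peaks of the known targets are shown first because they are the letters through which NRF2 is known to reach DNA. The search used the core TGACNNNGC on both strands and the reference genome GRCh38. Of the 12 listed targets with an NRF2 peak at a TSS, 6 had a core inside that peak, and 6, among them HMOX1, GCLC, SRXN1, TALDO1 and OSGIN1, had none with these letters. Over all best NRF2 peaks at a TSS, the core lay inside the peak at 986 of 3541 (27.8%) in genes with both and at 243 of 1041 (23.3%) in genes with NRF2 only, and wider peaks have more room for it. KEAP1, the partner that restrains NRF2, also had cores in its peak, as did NFE2L2 and GLRX2, whose cores are not printed. Each line gives 29 bases on the strand of the motif, with the core in capitals.
NQO1, chr16:69726997-69727025, minus strand: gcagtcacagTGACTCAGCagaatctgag
TXNRD1, chr12:104286920-104286948, minus strand: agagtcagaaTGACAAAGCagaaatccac
TXN, chr9:110257070-110257098, plus strand: tgctccagctTGACACAGCggtttagtgc
PRDX1, chr1:45522007-45522035, plus strand: cccgccggaaTGACTCGGCgctttccctc
PGD, chr1:10398853-10398881, minus strand: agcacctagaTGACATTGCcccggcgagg
SQSTM1, first of 2, chr5:179819575-179819603, minus strand: tggccaagcgTGACTCAGCagcccaggcg
SQSTM1, second of 2, chr5:179820543-179820571, minus strand: ggcctggccaTGACTCAGCaatatcctca
KEAP1, chr19:10502784-10502812, plus strand: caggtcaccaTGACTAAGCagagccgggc

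The cores of NQO1, TXNRD1, TXN, PRDX1 and PGD also lay inside the gene's ACTL6A peak. Most printed cores were not at the NRF2 summit. Those of PRDX1 and PGD lay 54 and 95 bp from it, and those of SQSTM1 108 and 1076 bp. The distance was 118 bp at TXNRD1, 201 bp at TXN, 217 bp at NQO1 and 304 bp at KEAP1. The NQO1 and SQSTM1 cores are the same 9 letters and contain the AP-1 site TGANTCA, so the motifs overlap there. The core is not rare: over the 300 bases around the start (250 before to 50 after) it occurred in 14.1% of 19061 promoters, each at the MANE Select start, 1 start per gene.

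A second motif is shown because it occurred at several of the best-ranked NRF2 peaks. The 8-letter palindrome CTCGCGAG was added to the search after the sequences of the leading promoters had been read, so its occurrence at those promoters is a description. Each line gives 30 bases on the strand of the gene, with the palindrome in capitals.
RBM39, chr20:35742297-35742326, minus strand: tggggcagcttCTCGCGAGagcccgtgctg
NAA38, chr17:7857519-7857548, minus strand: ggtcgggagcgCTCGCGAGatctcggacca
RC3H2, chr9:122905361-122905390, minus strand: gggagtaacttCTCGCGAGagctagatcgg
UPF3A, chr13:114281577-114281606, plus strand: gcggccgagctCTCGCGAGgtttcgtcggg

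The last set contrasts promoters of clustered histone genes, where NRF2 peaks were common, with a promoter at the head of the ACTL6A-only genes. These promoters do not stand for their classes. Each line gives the 100 bases before the start on the strand of the gene. Capitals mark the CCAAT box (CCAAT or its complement ATTGG), the TATA box (TATAAA), the GC box (GGGCGG or CCGCCC) and, in H2BC11, the ARE core read on the other strand. The TATA box was found in only 6.72% of NRF2-only and 4.47% of ACTL6A-only promoters. H1-4 is also not typical of NRF2-only histone promoters, of which 23.3% had a GC box. Its printed bases have 71.0% GC, beside a median of 41.8% in those promoters over the longer stretch searched.
H1-4, NRF2 only, chr6:26156229-26156328, plus strand: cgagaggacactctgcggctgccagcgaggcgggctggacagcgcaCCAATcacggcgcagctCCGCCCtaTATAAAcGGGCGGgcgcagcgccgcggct
H3C2, NRF2 only, chr6:26032100-26032199, minus strand: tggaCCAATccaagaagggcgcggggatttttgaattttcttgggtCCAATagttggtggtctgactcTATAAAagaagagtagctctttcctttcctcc
H2BC11, both, chr6:27132796-27132895, minus strand: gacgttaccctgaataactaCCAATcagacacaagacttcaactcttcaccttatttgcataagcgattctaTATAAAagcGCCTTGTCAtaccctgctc
FAM117A, ACTL6A only, chr17:49764132-49764231, minus strand: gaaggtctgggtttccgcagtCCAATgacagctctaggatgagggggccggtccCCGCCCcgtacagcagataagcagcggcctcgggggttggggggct

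The lists differ in size and in how peaks look, and this bears on every class count. The NRF2 list held 8032 of its 9045 peaks after 1013 (11.2%) that overlapped IgG 2 were left out, and the ACTL6A list held 23502 of 23917 after 415 (1.74%) were left out. NRF2 peaks were broader, with a median width of 473 bp against 205 bp for ACTL6A. The number of fragments at a peak's summit, recovered from the deposited enrichment and p-value, had a median of 16 in the NRF2 list where 2.77 were expected by the caller, and a median of 6 in the ACTL6A list where 0.389 were expected. Peaks were therefore compared by their rank within their own list, as a percent of the list, where 0 is the highest peak. In the ACTL6A list, peaks resting on few fragments often tied, and tied peaks share the mean of their ranks.

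Genes with both peaks had higher ranks in both lists than genes with a peak in 1 list. The median NRF2 rank was 32.7% of the list at genes with both (quartiles 15.0 and 55.0) and 55.5% at genes with an NRF2 peak only (34.7 and 75.5). The median ACTL6A rank was 13.8% at genes with both (5.74 and 27.4) and 32.5% at genes with an ACTL6A peak only (17.4 and 56.2). In fragments, the medians were 19 and 16 for NRF2 and 12 and 8 for ACTL6A. The quartile ranges of the classes overlapped in both lists.

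Sharing fell with rank in both lists, more steeply for ACTL6A. Among genes whose best NRF2 peak lay in the highest decile of the list, 727 of 781 (93.1%, Wilson 95% interval 91.1 to 94.7) also had an ACTL6A peak, and in the lowest decile 150 of 255 did (58.8%, 52.7 to 64.7). Among genes whose best ACTL6A peak lay in the highest decile, 1701 of 2088 (81.5%, 79.7 to 83.1) also had an NRF2 peak, and in the lowest decile 32 of 158 did (20.3%, 14.7 to 27.2). The intervals cover counting error only, and genes that share a promoter share its peaks. An NRF2 peak in the lowest decile still had an ACTL6A partner more often than genes at large, of which 38.4% had an ACTL6A peak, whereas the ACTL6A peaks of the lowest 5 deciles had an NRF2 partner at 18.5% to 30.1% of genes, beside 28.1% of all genes.

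**Figure D1:**
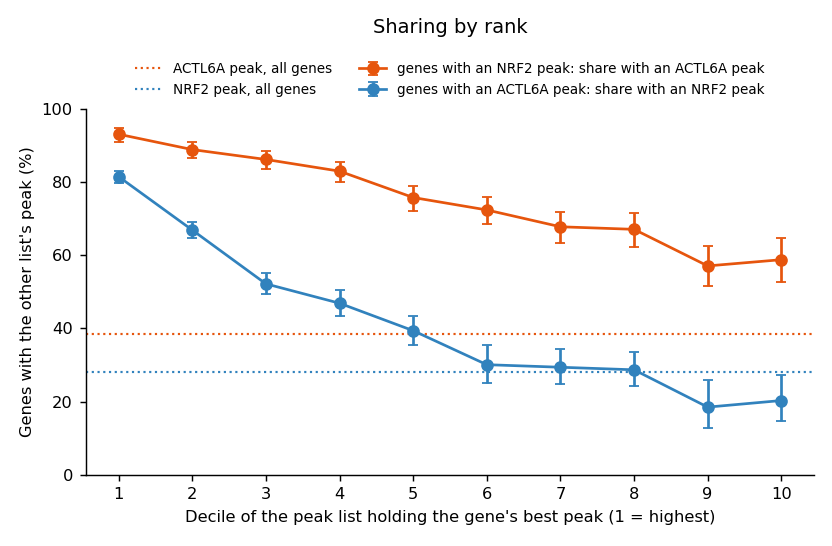
Share of genes (%) that also had the other list's peak, by the decile of the list holding the gene's best peak (1 is the highest). Bars are Wilson 95% intervals and dotted lines the share over all genes; the NRF2 curve falls from 93.1% to 58.8% and the ACTL6A curve from 81.5% to 20.3%.

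Over all classes together, 78.8% of the 5529 genes with an NRF2 peak had an ACTL6A peak, and 57.6% of the 7568 genes with an ACTL6A peak had an NRF2 peak. At the 4359 genes with both, the ranks rose and fell together only loosely, with a Spearman correlation of 0.385 across genes, which are not independent replicates and share promoter composition. Of the genes with both, 478 (11.0%) lay in the highest decile of each list. The highest NRF2 decile and the lower 50% of the ACTL6A list shared 14 genes (0.321%), and 278 (6.38%) showed the converse. These counts are not comparable with each other, since genes with both sit higher in the longer ACTL6A list (median 13.8%) than in the NRF2 list (32.7%).

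**Figure D2:**
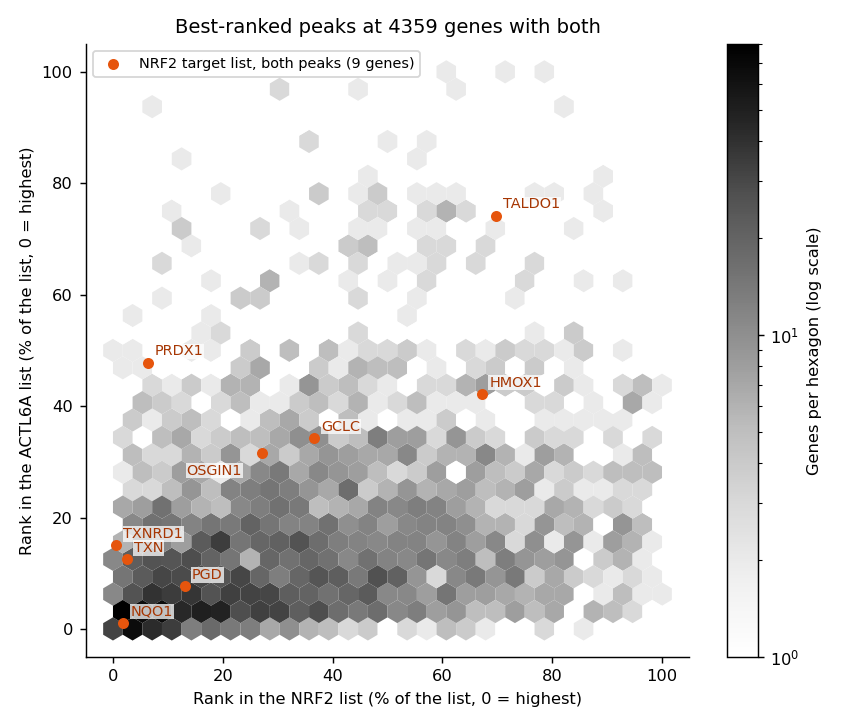
Rank of the best NRF2 peak (x axis) and best ACTL6A peak (y axis), each as % of its list with 0 highest, at the 4359 genes with both; darker hexagons hold more genes on a log scale. Orange points are the 9 NRF2 targets with both peaks, from NQO1 at the lower left (1.87% and 1.15%) to TALDO1 at the upper right (69.7% and 74.2%).

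At most shared genes the peaks lay on the same stretch of promoter. The rule for this class itself places both peaks within 1 kb of a start of the gene, so some overlap follows from it. Since neighbouring genes and divergent starts can share a peak, the 4359 genes came to 3580 distinct pairs of peaks, and 1513 genes (34.7%) shared theirs with another gene. Of the pairs, 3156 (88.2%) overlapped by at least 1 base, and in 1229 (34.3%) the ACTL6A peak lay whole within the NRF2 peak. The summits were a median of 149 bp apart (quartiles 57 and 303), and 813 pairs (22.7%) had summits within 50 bp. The median summit lay 44 bp before the nearest start for NRF2 and 86 bp before it for ACTL6A. The order of the classes depended on list size: with the highest 5000 peaks of each list, 2475 genes had both, 1733 had NRF2 only and 1434 had ACTL6A only.

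For genes with a peak in 1 list, the distance to the nearest called peak of the other list was measured, although the rule for the classes itself keeps such peaks away from the starts. For the 1170 NRF2-only genes, the nearest ACTL6A peak was over 10 kb from the NRF2 peak at 886 (75.7%) and overlapped it at 30 (2.56%), and none had lost an ACTL6A peak through IgG 2. For the 3209 ACTL6A-only genes, the nearest NRF2 peak was over 10 kb away at 2944 (91.7%), and 1 gene had lost an NRF2 peak through IgG 2. A BRG1 peak stood at a TSS of 99.7% of genes with both, 94.1% of the NRF2-only genes, 90.2% of the ACTL6A-only genes and 38.0% of the genes with neither. Over all protein-coding genes the share was 63.5% (12502 genes). A BRG1 peak was therefore called at most of the genes where the NRF2 list had a peak and the ACTL6A list had none, but also at most genes at large.

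The list of 24 known NRF2 targets was spread over all classes. Of these genes, 9 (37.5%, beside 22.1% of all genes) had both peaks, 3 (12.5%, beside 5.94%) had an NRF2 peak only, 2 (8.33%, beside 16.3%) had an ACTL6A peak only and 10 (41.7%, beside 55.6%) had neither. The order turned with stricter peaks: 4 had both, 5 NRF2 only and 0 ACTL6A only at −log10 q of at least 5, and 4, 6 and 0 did so with the highest 5000 peaks of each list. The list was chosen with earlier results of these data known.

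The highest NRF2 ranks of the list belonged to the thioredoxin system and to NQO1. TXNRD1, the thioredoxin reductase, had the NRF2 peak of rank 48 (0.598%, 73 fragments) at chr12:104286285-104287308 and an ACTL6A peak at 15.0% of its list (12 fragments). NQO1, a quinone reductase and a standard reporter of NRF2 activity, lay near the top of both lists, at 1.87% (54 fragments) for NRF2 and 1.15% (30 fragments) for ACTL6A. TXN, thioredoxin itself, lay at 2.48% and 12.5%. These 3 genes stood above the median rank of genes with both in the NRF2 list, and NQO1 and TXN did so in the ACTL6A list too.

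The other targets with both peaks ranged widely. PRDX1, a peroxiredoxin that thioredoxin recharges, ranked at 6.31% in the NRF2 list (35 fragments) but at 47.8% in the ACTL6A list, where its peak rested on 6 fragments. PGD, an enzyme of the pentose phosphate pathway that makes NADPH, had ranks of 13.1% and 7.64%. OSGIN1, an oxidative stress growth inhibitor, had 27.2% and 31.6%. HMOX1, which breaks down haem, lay at 67.2% and 42.2%, and its peaks did not overlap. TALDO1, transaldolase of the pentose phosphate pathway, had low ranks in both lists, at 69.7% and 74.2%, with peaks that did not overlap. GCLC, the catalytic subunit of the rate-limiting enzyme of glutathione synthesis, fell in the middle of both lists, at 36.7% (21 fragments) and 34.3% (8 fragments).

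The targets with 1 peak named here did not reach the top of a list. SRXN1, which repairs over-oxidised peroxiredoxins, had an NRF2 peak at 24.5% (27 fragments) and no ACTL6A peak called within 100 kb. SQSTM1 (p62), an autophagy receptor that competes for KEAP1, had an NRF2 peak only at 47.5% (30 fragments) that held 2 ARE cores. GCLM, the modifier subunit that partners GCLC, was the reverse, with an ACTL6A peak at 38.9% on 6 fragments and no NRF2 peak. SLC7A11, the cystine transporter of system xc-, had an ACTL6A peak at 40.7% on 7 fragments, while the nearest NRF2 peak was 772653 bp away. GSR, GPX2, TKT, ME1, FTH1, FTL, AKR1B10, AKR1C1, AKR1C2 and ABCC2 had neither, although GSR, the glutathione reductase, had a BRG1 peak at 1.37% of that list.

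**Figure D3:**
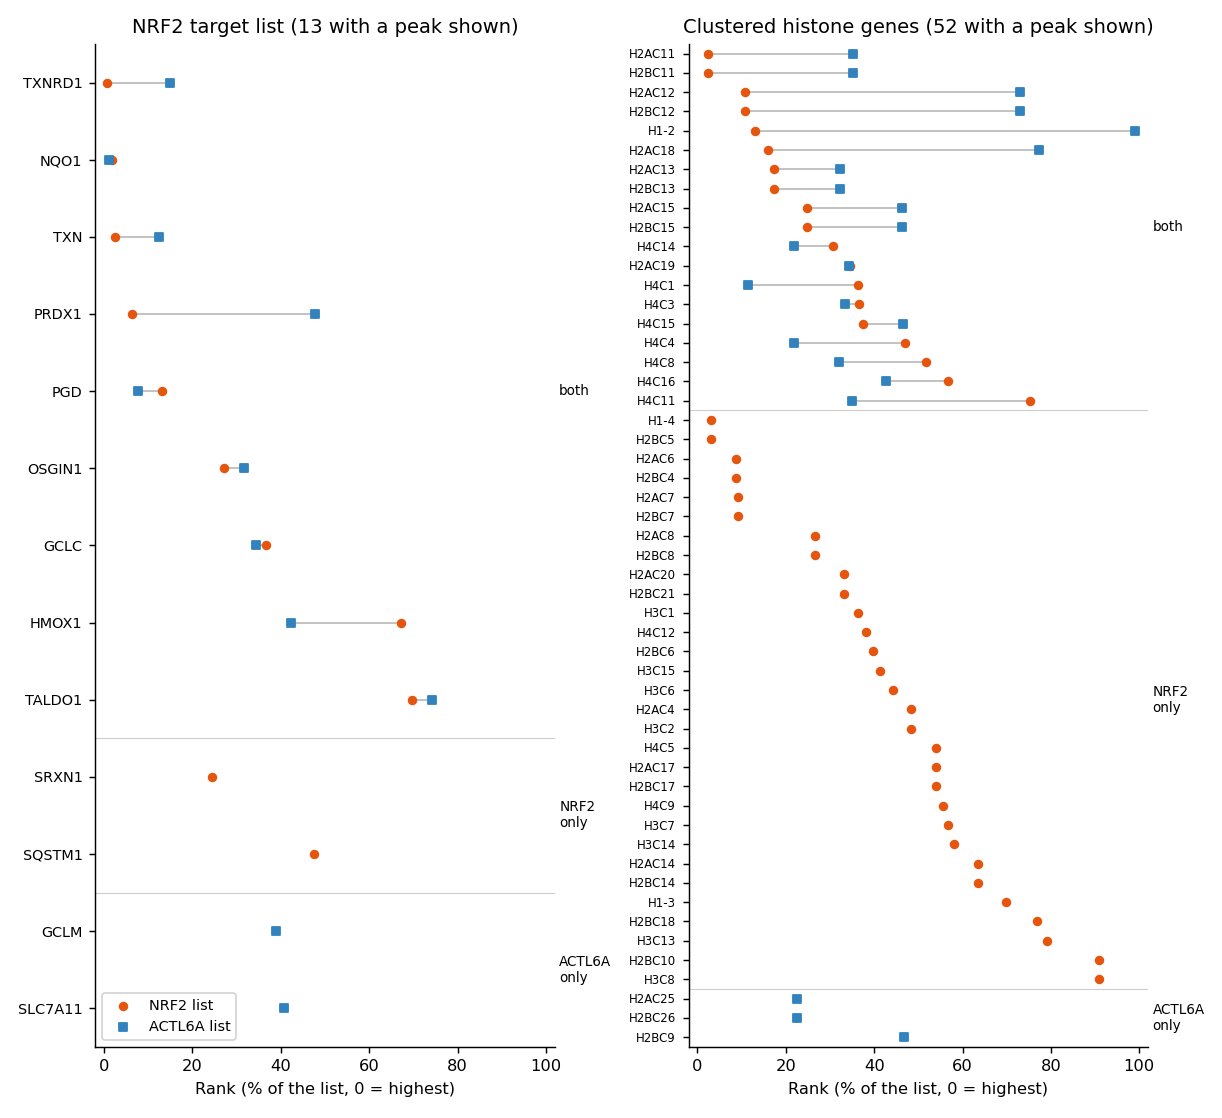
Rank of the best peak at a TSS, as % of the list with 0 highest, for 13 NRF2 targets with a peak (left) and the clustered histone genes with a peak (right), in the NRF2 list (orange circles) and the ACTL6A list (blue squares). Grey lines join the ranks of genes with both; 30 histone genes have only an NRF2 symbol and 3 only an ACTL6A symbol.

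Of the 14 genes that regulate or partner NRF2, 8 (57.1%, beside 22.1% of all genes) had both peaks, 1 had an NRF2 peak only and 5 had neither. NFE2L2 itself had an NRF2 peak at 32.9% (19 fragments) just downstream of a start and an ACTL6A peak at 19.1% (10 fragments) at another stretch of the gene, and these did not overlap. KEAP1 had an NRF2 peak only, at 54.0% (17 fragments). The subunits of its ligase ranked higher: CUL3 at 14.9% and 4.95%, and RBX1 at 4.54% and 2.36%, NRF2 first. The coactivator EP300 (3.3% and 3.9%) and the related factor NFE2L1 (4.53% and 2.3%) were near the top of both lists. The EP300 summits lay 937 bp (NRF2) and 986 bp (ACTL6A) before the nearest start. The small MAF genes MAFF, MAFG and MAFK, and BACH1, which competes for the same sites, had neither peak.

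Of 20 genes of glutathione synthesis and recycling, 6 (30.0%, beside 22.1% of all genes) had both and 3 (15.0%, beside 5.94%) had NRF2 only. A further 2 (10.0%, beside 16.3%) had ACTL6A only and 9 (45.0%, beside 55.6%) had neither. Glutathione synthetase GSS, the next enzyme after GCLC and GCLM, had ranks of 32.4% for NRF2 and 23.1% for ACTL6A. GGCT, which turns over gamma-glutamyl peptides, and GLRX5, a mitochondrial iron-sulphur cluster glutaredoxin, were high in the ACTL6A list (3.42% and 1.45%) and low in the NRF2 list (46.6% and 79.5%). GLRX2, another mitochondrial glutaredoxin, was the converse, at 39.1% for NRF2 and 86.0% for ACTL6A on 4 fragments. GPX4, which reduces lipid peroxides and is the central brake on ferroptosis, and GLRX, the cytosolic glutaredoxin, had an NRF2 peak only, at 47.1% (30 fragments) and 43.5% (22 fragments). The GLRX summit lay 1042 bp before the nearest start. The NRF2 ranks of the 9 genes of this list with an NRF2 peak ran from 32.4% at GSS to 90.9% at OPLAH, the 5-oxoprolinase.

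In the neighbouring pathways the share of genes with both peaks varied, and a few genes had high ranks. Of 13 thioredoxin and peroxiredoxin genes, 6 (46.2%) had both, and of 16 genes of iron handling 7 (43.8%) had both and 3 an NRF2 peak only. FBXL5, the iron-sensing ubiquitin ligase subunit, had ranks of 0.896% for NRF2 (53 fragments) and 2.17% for ACTL6A (23 fragments). NCOA4, the receptor for ferritin breakdown, had 0.909% (69 fragments) and 13.8% (11 fragments), while the ferritin genes FTH1 and FTL themselves had neither peak. Of 14 genes that supply cystine, glutamine and glutamate, 6 had both, among them SLC3A2, the heavy chain that partners SLC7A11 (24.5% and 5.1%), and CTH, which makes cysteine from cystathionine (11.2% and 6.23%). Of 18 genes on the ferroptosis list, 2 (11.1%) had both and 10 had neither.

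Genes of the complexes that hold ACTL6A were also compared. Of 29 SWI/SNF subunit genes, 10 (34.5%) had both, 4 an NRF2 peak only, 6 an ACTL6A peak only and 9 neither, and of 29 INO80 and TIP60 genes 15 (51.7%) had both. ACTL6A itself had an NRF2 peak at 10.8% (25 fragments) and an ACTL6A peak at 0.891% (32 fragments), at chr3:179562740-179563214 and chr3:179562656-179563075, which overlap. SMARCD2, a SWI/SNF subunit, had the NRF2 rank nearest the top of these lists, at 1.32% (68 fragments), with an ACTL6A rank of 6.47%. SMARCA4, which encodes BRG1, had an ACTL6A peak only (25.8%, 8 fragments), with its summit 1051 bp from the start.

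Both peaks stood at 50.0% or more of the genes of several housekeeping groups. They were called at 19 of 25 heat shock and chaperone genes (76.0%), 25 of 40 translation factors (62.5%), 14 of 23 genes of cholesterol synthesis (60.9%), 17 of 30 genes of DNA replication and mitosis (56.7%), 11 of 20 aminoacyl-tRNA synthetases (55.0%) and 16 of 32 Sm and snRNP genes (50.0%). In the chaperone group, HSPA8, the constitutive HSP70, had ranks of 3.64% for NRF2 and 2.46% for ACTL6A. Of this group, 1 gene had an IgG 2 peak at a start, as did 30 of all genes. HSPA1B had both peaks and HSPA1A an ACTL6A peak only, but these genes are near-identical copies and the reads could not be told apart with certainty. Some groups of similar kind held more ACTL6A-only genes: the mitochondrial ribosomal proteins with 24 of 78 genes with both and 27 with ACTL6A only, and the Mediator subunits with 10 and 12 of 30.

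Both peaks were uncommon in lineage groups. Of 21 genes of epithelial adhesion and keratins, 1 (4.76%) had both, 0 had NRF2 only, 8 had ACTL6A only and 12 had neither. The 8 were KRT8, KRT18, KRT19, EPCAM, CLDN3, OCLN, JUP and ESRP1, with KRT8 at 16.4% of the ACTL6A list, EPCAM at 14.1% and JUP, plakoglobin of desmosomes, at 9.68%. These are markers of an epithelial line, though 12 genes of the list had neither peak. Among those were CLDN18, CDH17, VIL1, KRT7, KRT20 and CDH1 (E-cadherin), the last with a BRG1 peak at 30.3%. The mesenchymal markers VIM and COL1A1 (17.6%) also had an ACTL6A peak only. Of 16 blood cell genes 15 had neither, among them PTPRC and CD3E. Of the neuron and muscle markers, SNAP25 and MYH7 had neither peak. SYT1 (86.0% of the ACTL6A list) and TTN (30.3%) had an ACTL6A peak only, and KRT18 stood at 63.2%. Muscle genes had ACTL6A only at 3 of 15 (20.0%, beside 16.3% of all genes). Of 39 HOX genes 34 had neither, and of 381 olfactory receptor genes, which most tissues keep silent, 363 had neither.

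The remaining lists lay between these groups. Both peaks were called at 6 of 13 AP-1 factors (46.2%), 8 of 18 genes of the p53 pathway and cell cycle brakes (44.4%), 7 of 22 of the YAP and TEAD pathway (31.8%), 6 of 18 of the ATF4 stress response (33.3%), 6 of 17 of NADPH production (35.3%) and 4 of 18 glutathione transferases (22.2%). Among large machines the shares were 16 of 33 for the proteasome (48.5%), 32 of 79 for cytosolic ribosomal proteins (40.5%) and 29 of 75 for the nuclear-encoded respiratory chain (38.7%). The zinc finger genes of chromosome 19 had both at 83 of 240 (34.6%). Tissue lists were low throughout, with 3 of 23 gastric and gut lineage factors, 2 of 18 mesenchymal genes, 1 of 16 neuron genes and 0 of 15 muscle genes.

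**Figure D4:**
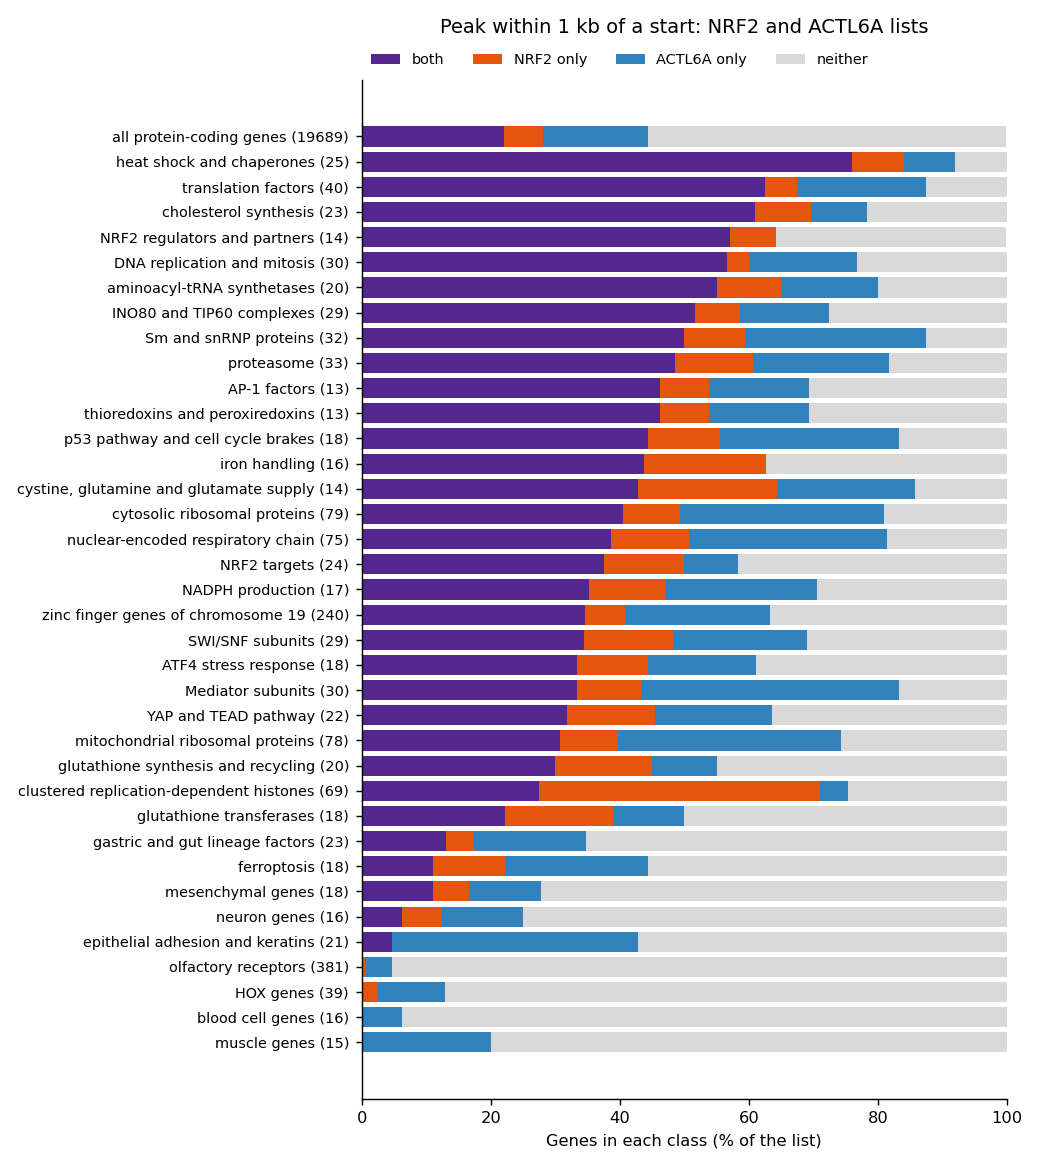
Share of genes (%) in each class for all protein-coding genes (top bar) and the 36 gene lists, with the number of genes in parentheses, in order of the share with both peaks. Heat shock and chaperone genes reach 76.0% with both beside 22.1% of all genes, and the clustered histones have the widest NRF2-only segment at 43.5%.

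The clustered replication-dependent histone genes, which package new DNA in S phase, departed most from the other lists in the NRF2-only class. Of 69 genes, 30 (43.5%, beside 5.94% of all genes) had an NRF2 peak only, 19 (27.5%) had both, 3 had an ACTL6A peak only and 17 had neither. A BRG1 peak was called at 56 of the 69, beside 63.5% of all genes, and an IgG 2 peak at none. Because neighbouring histone genes face each other across a short promoter, the 49 genes with an NRF2 peak came to 35 distinct peaks, and the 30 NRF2-only genes to 21. Histone copies are close in sequence, and so are some of their promoters. The bases just before the start were identical in H4C14 and H4C15. They were nearly identical in H4C11 (both) and H4C12 (NRF2 only), and in H2AC13 (both) and H2AC14 (NRF2 only). Reads in the coding regions and in such promoters may therefore be split between copies, and single genes and their classes are uncertain. With the highest 5000 peaks of each list, 40 histone genes had NRF2 only and 1 had both. The list was singled out after values had been seen.

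The histone families differed in how the classes fell. All 8 H3 genes with a peak had an NRF2 peak only, with the other 5 of 13 having neither. Of 18 H2B genes 10 had NRF2 only and 4 had both, and of 17 H2A genes 7 had NRF2 only and 6 had both. In contrast 8 of 15 H4 genes had both and 3 had NRF2 only. Among the linker histones, H1-4 shared with H2BC5 the highest NRF2-only peak of the clusters, at 3.17% of the list (49 fragments).

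Where histone genes had both peaks, the ACTL6A peak stood lower in its list than the NRF2 peak did in its own at 11 of 19 genes (57.9%), beside 1008 of all 4359 genes with both (23.1%). The divergent pair H2AC11 and H2BC11 had an NRF2 rank of 2.49% (50 fragments) and an ACTL6A rank of 35.1% (8 fragments), and H1-2 had 13.0% (27 fragments) and 99.0% (3 fragments). The median over the 19 genes was 24.9% for NRF2 and 35.1% for ACTL6A, the reverse of the order over all genes with both. In the promoters, the CCAAT box was found at 28 of 30 NRF2-only histone genes (93.3%) and 13 of 19 with both (68.4%), beside 36.1% of all promoters. The TATA box was found at 22 of 30 (73.3%) and 12 of 19 (63.2%), beside 9.52%. The ARE core was found at 0 of 30 NRF2-only histone promoters, which allows a share of up to 11.4% by the Wilson interval, and at 7 of 19 with both (36.8%), beside 14.1% of all promoters. That interval takes the 30 promoters as separate, although they came to 21 distinct NRF2 peaks and the 19 with both to 15. Some of these promoters are also nearly identical in sequence, within and across the classes. These counts are therefore not of independent sequences.

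The 5 best-ranked NRF2 peak sets at genes with both lay between rank 3 and rank 15 of the list. RBM39, a splicing factor, had the NRF2 peak of rank 3 at chr20:35741705-35742679, with 170 fragments where 13.2 were expected, and an ACTL6A peak at 1.38% (29 fragments). FAM86B1 on chromosome 8 had NRF2 rank 5 and ACTL6A rank 1, with 144 and 214 fragments and the same summit, but it has near-identical paralogues and its values are uncertain. CDK12, a kinase of the RNA polymerase II tail, had NRF2 rank 12 (94 fragments) with ACTL6A at 16.0%. The divergent genes CYB5D1 and NAA38, the latter a subunit of the NatC acetyltransferase, shared NRF2 rank 14 (107 fragments) with ACTL6A at 14.2%. RC3H2 (Roquin-2), an RNA-binding ubiquitin ligase, had NRF2 rank 15 (88 fragments) with ACTL6A at 1.86%.

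The highest ACTL6A peaks at genes with both were other genes except FAM86B1. The unnamed gene ENSG00000270249 on chromosome 7 had ACTL6A rank 3 (180 fragments) and NRF2 rank 69 (86 fragments). GIPR, the receptor of an incretin hormone, had ACTL6A rank 6 (125 fragments) and an NRF2 peak only at 79.4% (16 fragments). FARP2, a guanine nucleotide exchange factor, had ACTL6A rank 12 (86 fragments) and NRF2 rank 28 (83 fragments), with the summits at the same base. HSPD1 and HSPE1, which face each other and encode the mitochondrial chaperonin and its lid, shared ACTL6A rank 16 (69 fragments) and an NRF2 rank of 6.74% (33 fragments).

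At the head of the NRF2-only genes stood SMDT1, an essential part of the mitochondrial calcium uniporter, with NRF2 rank 36 (71 fragments) at chr22:42079537-42080265 and the nearest ACTL6A peak 8311 bp away. UPF3A, a factor of nonsense-mediated decay, had rank 42 (69 fragments), and SLC35E2B, of a solute carrier family, had rank 45 (77 fragments). ZNFX1, a helicase-like sensor of viral RNA, followed at rank 161 (57 fragments). ZNF300, a KRAB zinc finger gene at rank 169 (35 fragments), was the one of these 5 without a BRG1 peak. The other 4 had one, and SMDT1 stood at rank 288 of 48455 in that list.

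At the head of the ACTL6A-only genes stood SPATC1L with ACTL6A rank 19 (64 fragments) at chr21:46184461-46184782, where the nearest NRF2 peak was 40368 bp away. AHRR, which represses the aryl hydrocarbon receptor, had rank 37 (57 fragments) with its summit 1058 bp downstream of a start. FAM117A had rank 57 (49 fragments), and OSBPL2, an oxysterol-binding protein gene, had rank 105 (39 fragments). All 4 had a BRG1 peak, at rank 34 for SPATC1L, 44 for FAM117A, 127 for OSBPL2 and 14079 for AHRR.

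At the widest gaps in rank among genes with both, the lower-ranked peak held at most 6 fragments in the ACTL6A list and 13 in the NRF2 list. The medians of the whole lists were 6 and 16. Rank and fragment number are not independent, and the cause of the gaps was not tested. SRCAP, the ATPase that deposits H2A.Z, had NRF2 at 2.28% (49 fragments) and ACTL6A at 77.7% (6 fragments), and MMS22L, a replication fork factor, had 4.76% (29 fragments) and 77.5% (4 fragments). BRF1, a subunit of the RNA polymerase III factor TFIIIB, shared with PACS2 an NRF2 rank of 8.78% and an ACTL6A rank of 93.6%. In the other direction, PEX16, of peroxisome assembly, had ACTL6A at 0.634% (44 fragments) and NRF2 at 94.5% (13 fragments), on overlapping peaks. GCA, the calcium-binding protein grancalcin, had ACTL6A at 0.264% (47 fragments) and NRF2 at 97.9% (8 fragments), and these peaks stood at different starts of the gene. PKP4, a plakophilin of cell junctions (3.2% and 99.8%), and NAA30, the catalytic subunit of NatC (5.66% and 98.7%), also had ACTL6A and NRF2 peaks that did not overlap, and MTMR14, a phosphoinositide phosphatase, had 7.26% and 99.9%.

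The promoters of the classes differed in composition. Median GC content was 70.3% at NRF2-only genes, 65.0% at genes with both, 65.0% at ACTL6A-only genes and 61.3% at genes with neither. The ratio of observed to expected CpG was 0.89, 0.863, 0.824 and 0.64 in the same order, so all 3 classes with a peak were richer in CpG than the rest. The ARE core occurred in 15.7% of promoters with both, 17.0% with NRF2 only, 12.7% with ACTL6A only and 13.5% with neither. The Wilson intervals of the NRF2-only and ACTL6A-only promoters were 14.9 to 19.3 and 11.6 to 14.0. Within 100 bp of the summits the intervals of these classes overlapped, at 9.99% (8.31 to 12.0) for NRF2 only and 9.17% (8.18 to 10.3) for ACTL6A only, and at genes with both the core occurred at 10.3% of NRF2 summits and 11.1% of ACTL6A summits. Within 100 bp of the NRF2 summit the core occurred at 10.2% of all 4727 NRF2 peaks at a TSS and at 16.0% (11.6 to 21.7) of the highest 200.

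Other motifs also differed in share between the classes. The CCAAT box was found in 45.4% of promoters with both, beside 31.0% with NRF2 only, 34.7% with ACTL6A only and 33.3% with neither. The core of NRF1 (GCATGCGC), a factor of mitochondrial gene expression unrelated to NRF2, was found in 7.29%, 6.01%, 5.4% and 2.58% in the same order, and the ETS site (CCGGAAG) in 23.0%, 20.3%, 19.6% and 8.32%. The TATA box ran the other way, at 4.25%, 6.72% and 4.47% in the classes with a peak and 13.4% with neither, and so did the AP-1 site, at 3.49%, 3.8% and 4.15% beside 6.75%. Of the 76 NRF2-only promoters with a TATA box, 22 were those of clustered histone genes. GC content and CpG differed between the classes as well, and their part in these shares was not tested.

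The palindrome CTCGCGAG was more frequent at the highest NRF2 peaks than at the highest ACTL6A peaks. It was found in 3.49% of promoters with both and 3.8% with NRF2 only, beside 0.958% with ACTL6A only, 0.616% with neither and 1.5% of all 19061. Within 100 bp of the summit it occurred at 50 of 608 peaks (8.22%, 6.29 to 10.7) in the highest NRF2 decile and at 0.4% in the lowest. In the ACTL6A list it occurred at 1.83% of the highest decile, and in the BRG1 list at 1.47%. Of the highest 200 peaks at a TSS, 24 (12.0%, 8.2 to 17.2) in the NRF2 list held it, 0 in the ACTL6A list (which allows up to 1.88% by the Wilson interval) and 0.5% in the BRG1 list. The leading peaks whose promoters had been read before the search remain in these counts and in those below. The intervals do not allow for that choice.

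The palindrome also went with higher NRF2 ranks among genes that had both peaks. The 148 genes whose promoter held the palindrome had a median NRF2 rank of 9.14% (quartiles 3.73 and 27.6), and the 4092 without it 33.5% (15.9 and 55.8). Their median ACTL6A ranks were 11.9% and 13.9%, and their median BRG1 ranks 11.0% and 8.45%. RBM39, NAA38 and RC3H2, whose sites are printed above, belong to these promoters, while UPF3A had an NRF2 peak only. None of the 5 best ACTL6A peak sets or the 4 leading ACTL6A-only genes named here had the palindrome within 100 bp of a summit. A match to these letters does not show which protein was bound.

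**Figure D5:**
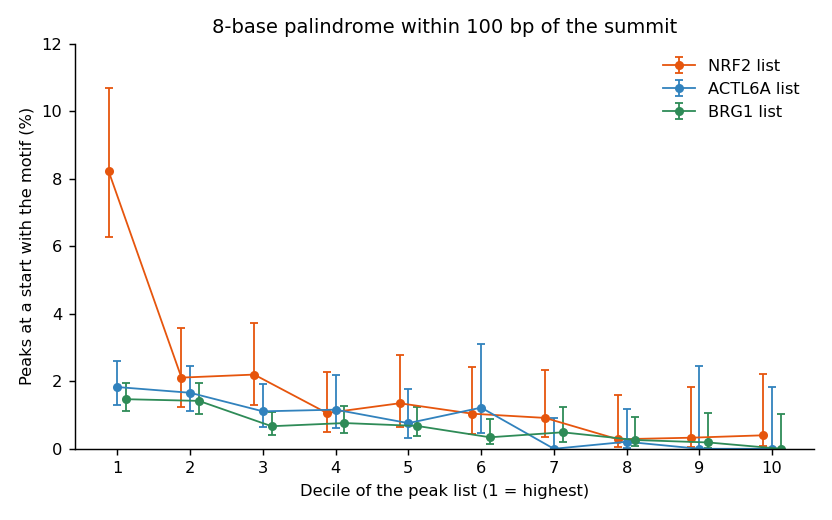
Share of peaks at a TSS (%) with the 8-base palindrome within 100 bp of the summit, by decile of each list (1 is the highest), for the NRF2, ACTL6A and BRG1 lists; bars are Wilson 95% intervals. The NRF2 list reaches 8.22% in its highest decile, where ACTL6A has 1.83% and BRG1 1.47%.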

How the data were processed

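CUT&Tag libraries of SNU638 cells were sequenced as 150 bp paired ends, with 1 library for each antibody and 2 for IgG. Per the labels, the authors' notes name fastp 0.23.0, FastQC, BWA, MACS2, deepTools, HOMER 4.11 and the build hg38. The authors deposited 1 peak list per library, called by MACS2 at q below 0.05. Which control was given to the caller is not given in the sources used here. Column 7 of each deposited list holds the fold enrichment at the summit, the next columns hold −log10 p-values and −log10 q-values, and an integer score is also given. Reads and signal tracks were not analysed here, and depth at peaks is given only as the fragments at summits. The paper reports more clean reads for the NRF2 library than for the ACTL6A library. The part of this difference in the class counts was not tested.

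Peaks that overlapped an IgG 2 peak by at least 1 bp were left out, and the rest were ranked by column 9 (−log10 q), with ties averaged. A gene had a peak where any base lay within 1 kb of a TSS of its 89054 GENCODE 44 protein-coding transcripts, and its best-ranked peak was kept. Fragments at a summit were recovered as the whole number k for which the fold enrichment, taken as (k + 1) over (expected + 1), and a Poisson −log10 p-value matched the deposited values within 0.001 (log10) or, where larger, their rounding. A number was found for every peak. Motifs were searched on both strands with pysam 0.24.0 on GRCh38. Python 3.11.15, pandas 2.3.3, NumPy 2.4.6 and SciPy 1.17.1 were used.

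Scripts were tested on simulated data, where 600 of 600 overlaps, 2000 of 2000 gene classes, 3841 of 3842 fragment numbers and 1000 of 1000 motif windows were recovered. Shares carry Wilson 95% intervals, and no test between antibodies was made. Named were the 5 best-ranked peak sets of each class, the 5 widest rank gaps in each direction and the members of fixed lists. The 36 lists and the members were chosen with earlier results of these data known. The histone list, the palindrome and the genes quoted from other lists were chosen for the text after their values were seen. Some members of these sets are not reported here.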

Additional observations from a re-analysis of the deposited data

How the results depend on the processing

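Of 136 values recomputed for 26 results, 97 stayed within their range and 39 moved. The range was much narrower for shares than for counts. The share of NRF2 genes with an ACTL6A peak counted as moved at 77.5% beside 78.8%. NRF2-only genes counted as within range at 1733 beside 1170, and NRF2-only histone genes at 40 beside 30. The tally therefore mixes strict and loose limits and is not a measure of stability. With the highest 5000 peaks of each list, orders between results turned: NRF2-only genes (1733) outnumbered ACTL6A-only genes, and the NRF2-gene share fell below the ACTL6A-gene share. Among NRF2 targets, NRF2 only exceeded both under that setting and at −log10 q of at least 5. The alternatives for the histone list, the palindrome and chromosome 8 were chosen after seeing the data. No paired analysis was possible because a single library stood for NRF2 and for ACTL6A, so none could be left out either.

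With peaks of −log10 q of at least 5, genes with both fell to 2384, the NRF2-gene share with ACTL6A to 70.7% and the ACTL6A-gene share with NRF2 to 51.3%. NRF2 targets then had 4 with both, 5 NRF2 only and 0 ACTL6A only, and histone genes had 3 with both. BRG1 peaks of that threshold stood at 98.7%, 88.3% and 81.9% of the genes with both, NRF2 only and ACTL6A only. With the highest 5000 peaks of each list, genes with both numbered 2475, ACTL6A-only genes 1434 and the shares were 58.8% and 63.3%. NRF2 targets then had 4, 6 and 0, and histone genes 1 with both and 0 ACTL6A only. These settings use fewer peaks by construction. Where the peaks had to share 1 bp, the shares were 72.9% and 53.2%, with 5 NRF2-only and 4 ACTL6A-only targets. The shares were 77.5% and 55.0% with each set of peaks counted once, 75.4% and 60.3% within 250 bp, and 80.1% and 54.7% within 3 kb.

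With ranks counted among TSS peaks alone, the ACTL6A median difference between ACTL6A-only genes and genes with both rose from 18.6 to 30.2 percentage points. Around summits the ARE core was found at 10.3%, 9.99% and 9.17% for both, NRF2 only and ACTL6A only, and with TGANNNNGC in promoters at 44.2%, 46.7% and 42.5%. Around summits the palindrome was found at 2.26%, 2.02% and 0.239%. Part of these shifts follows from the settings. Every TGACNNNGC match is also a TGANNNNGC match, so the shares with the looser letters cannot be lower. The summit windows were shorter than the promoters searched, which leaves less room for a match. Ranks among TSS peaks alone are percents of a shorter list, so the differences are on another scale. Whether anything beyond the settings contributed was not tested. Peaks of 3 to 6 fragments limit the low ranks of the ACTL6A list.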

Other observations

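The classes were unevenly spread over the chromosomes. Chromosome 8 had the highest share of NRF2-only genes, 80 of 693 (11.5%), and the lowest share of ACTL6A-only genes among the autosomes, 60 (8.66%), while its share with both was 22.9%. The IgG 2 list was also dense there, with 188 of its 1746 peaks (10.8%) on chromosome 8, beside 6.99% of the NRF2 peaks and 3.75% of the ACTL6A peaks. The number of fragments the caller expected at NRF2 peaks of chromosome 8 had a median of 2.81, beside 2.77 over the list. The part of copy number or of IgG signal in the class shares was not tested, and without chromosome 8 there were 4200 genes with both, 1090 with NRF2 only and 3149 with ACTL6A only.

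Chromosome 11 had 34 of 1291 genes (2.63%) with NRF2 only and 269 (20.8%) with ACTL6A only, and chromosome 17 had ACTL6A only at 243 of 1158 (21.0%). The X chromosome had both peaks at 70 of 853 genes (8.21%), the lowest share of these chromosomes, although ACTL6A-only genes made up 15.9% there, close to 16.3% over all genes.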
